A study of Caenorhabditis elegans with 24 samples.

Results

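The genes described here are the superoxide dismutases and catalases of the nematode Caenorhabditis elegans, namely sod-1, sod-2, sod-3, sod-4, sod-5, ctl-1, ctl-2 and ctl-3. They were chosen by name, as array rows whose only gene symbol in the platform table is one of these names. All 8 were found, with 1 probe set each, among 25434 genes tested. Messenger RNA was measured on 24 Affymetrix gene arrays, in 8 groups of 3 RNA preparations each from pooled whole worms. The groups combine wild-type worms or mutants carrying daf-16(mgDF47), 15 °C or 25 °C, and one of 2 ages. Adults had spent 3 days at their temperature since late L4 (day 3, about 120 worms per preparation), and larvae had grown at it from the embryo and were taken at late L4, the final larval stage (about 300 worms). Equal days at 15 °C and 25 °C do not mean equal progress through adult life, so adult differences with temperature and with physiological age cannot be told apart. Each genotype is a single label, and the labels leave unsaid whether the 3 preparations of a group were grown apart, so every p-value here rests on preparation-to-preparation spread alone.

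Superoxide dismutases turn superoxide, a by-product of respiration and of oxidase enzymes, into hydrogen peroxide and oxygen. Catalases break hydrogen peroxide down to water and oxygen. In C. elegans the family is divided by compartment. The manganese enzymes SOD-2 and SOD-3 are mitochondrial, the copper and zinc enzymes SOD-1 and SOD-5 are cytosolic, and SOD-4 carries a signal for export or the cell surface. CTL-2 is the peroxisomal catalase and CTL-1 the cytosolic one, while CTL-3 has been seen in pharyngeal muscle and neurons. DAF-16 is the FOXO transcription factor held in check by insulin-like signalling, and sod-3 is one of its best known targets when that signalling is low. In the RefSeq annotation ctl-2, ctl-1 and ctl-3 are direct neighbours. The 3 catalase genes are also similar in sequence, so a share of signal between their probe sets is possible and was not tested.

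Values are log2 RMA values, and a difference of 1 is a 2-fold change. Differences are given with the standard error (SE) of limma's fit, and adjusted p-values come from limma's moderated test over all 25434 genes, two-sided, with Benjamini-Hochberg adjustment. A gene was called, and is said to have risen or fallen, at an adjusted p under 0.05. The adult and larval arrays have different distributions and look to have been normalised apart (array medians over the genes tested 3.57 to 3.72 in adults and 3.05 to 3.12 in larvae), so levels were compared only within a stage. The targeted gene daf-16 was lower in each mutant group, by limma differences of -2.04 and -2.01 in adults and -2.14 and -2.48 in larvae, with adjusted p of at most 1.2e-07. Of 12 early embryo genes, 8 lay above the array median in every adult group and 2 in every larval group.

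Most of the family was read well above the middle of the arrays, and sod-3 and sod-5 were not. sod-1, ctl-1, ctl-2, sod-4, sod-2 and ctl-3 lay above the array median in all 24 arrays. sod-1, the main cytosolic dismutase, ranked at the 94.0th to 96.0th percentile of genes within the adult arrays and at the 89.8th to 93.6th in larvae. ctl-3 stood between the 77.5th and 85.2nd percentile in adults and between the 62.4th and 72.2nd in larvae. Ranks were not compared between the stages, whose arrays look to have been normalised apart. sod-3 lay below the array median in all 24 arrays, at the 31.3rd to 49.6th percentile in adults and the 35.3rd to 46.2nd in larvae. sod-5 lay above the array median in 8 of 12 adult arrays and in 0 of 12 larval arrays. Near or below the middle of an array a probe set may hold little signal. A missing call for sod-3, and for sod-5 in larvae or in mutant adults, therefore says little. A lower level in whole worms can mean fewer cells that use a gene or less RNA per cell, and these cannot be told apart.

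**Figure D1:**
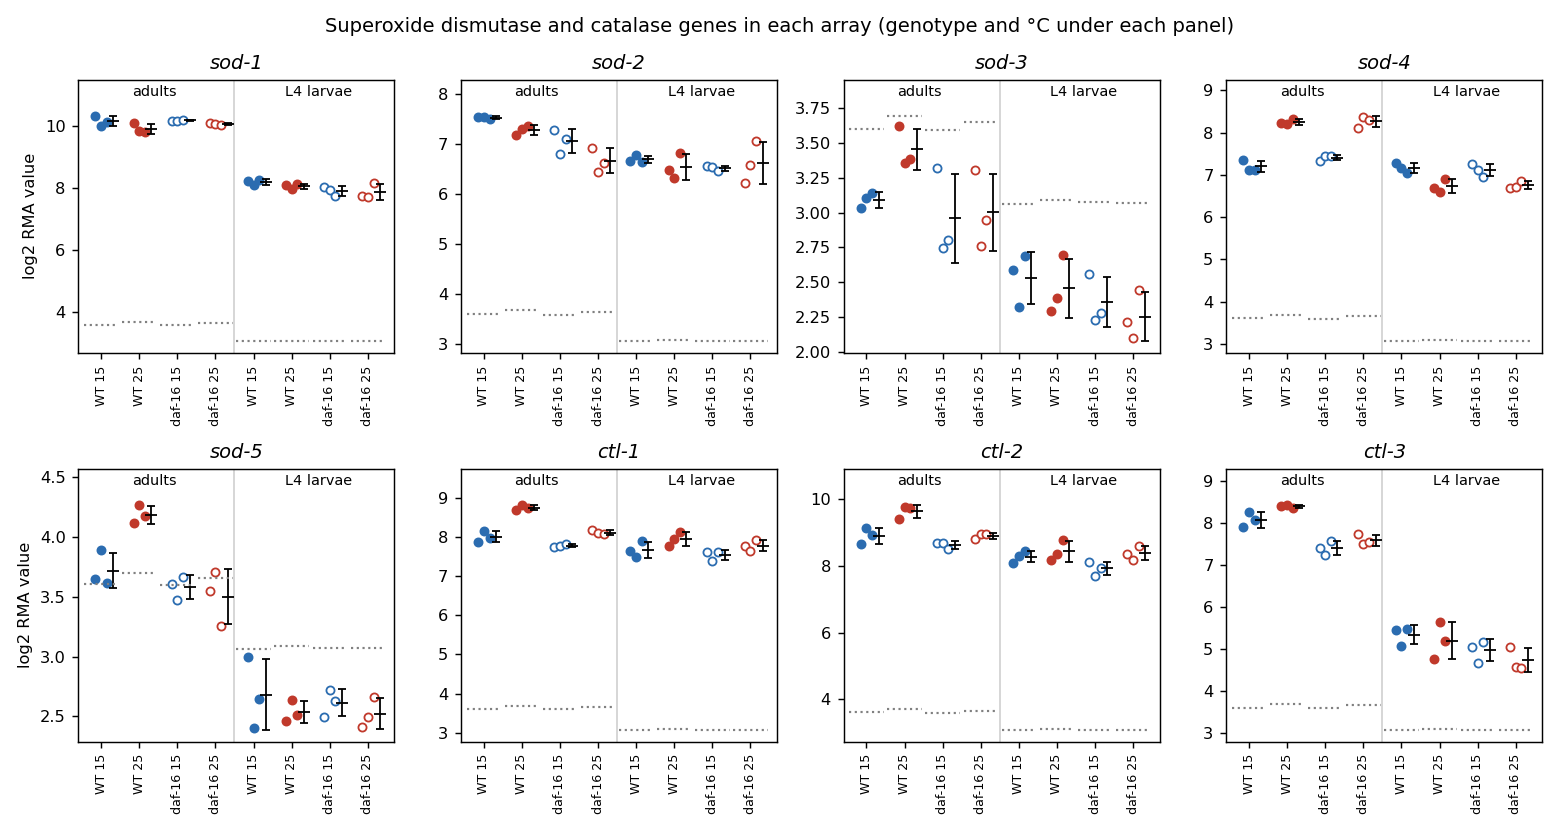
Log2 RMA value of each of the 8 genes in each of the 24 arrays, by group, with the group mean ± SD (n = 3) beside the points and the array median as a dotted line. Filled points are wild type (WT) and open points daf-16, blue is 15 °C and red 25 °C. In adults sod-4 is higher at 25 °C in both genotypes, and the wild-type 25 °C arrays are the highest of the adults for sod-5, ctl-1 and ctl-2. The scale differs between panels and between stages.

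In warm wild-type adults RNA was higher for the exported dismutase gene sod-4, the cytosolic dismutase gene sod-5 and the catalase genes ctl-1 and ctl-2. The main cytosolic and mitochondrial dismutase genes, sod-1 and sod-2, were not called. By limma sod-4, sod-5, ctl-1 and ctl-2 rose from 15 °C to 25 °C and 0 of the 8 fell, where 15.1% of all genes rose and 15% fell. The median difference of the 8 was 0.42, beside -0.10 over all genes. In 7 of the 8 genes the groups of 3 arrays did not overlap, as in 42.9% of all genes. After median centring, rises made up 36% of all calls in place of 50.2% (43.4% in place of 54.3% in mutant adults), and the same 4 genes of the family stayed called.

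sod-4 had the largest of these differences. Its 3 wild-type adult arrays at 15 °C read 7.35, 7.12 and 7.12, and those at 25 °C read 8.22, 8.20 and 8.33. Every warm array was above every cool one, and the rise was 1.05 ± 0.11 (SE), or 2.08-fold, at adjusted p = 3.44e-07. In daf-16 adults the cool arrays read 7.33, 7.44 and 7.44 and the warm ones 8.12, 8.37 and 8.30. The groups were again apart, and the rise was 0.86 ± 0.11 (SE), or 1.81-fold, at adjusted p = 7.78e-06. Both warm groups lay together, at 8.25 ± 0.07 and 8.26 ± 0.13 (SD, n = 3), and both cool groups overlapped at 7.20 ± 0.13 and 7.40 ± 0.06 (SD, n = 3). The response of the mutant minus that of the wild type was -0.20 with a 95% interval of -0.53 to 0.14 (limma adjusted p = 0.953).

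The catalases ctl-1 and ctl-2 had similar differences to each other. For ctl-1 the wild-type adult arrays read 7.88, 8.16 and 7.98 at 15 °C and 8.69, 8.82 and 8.74 at 25 °C. The warm arrays were all higher, with a rise of 0.74 ± 0.12 (SE), or 1.68-fold, at adjusted p = 5.24e-05. For ctl-2 the arrays read 8.66, 9.14 and 8.92 at 15 °C and 9.42, 9.76 and 9.74 at 25 °C. These were also apart, with a rise of 0.73 ± 0.16 (SE), or 1.66-fold, at adjusted p = 0.00127. In daf-16 adults ctl-1 read 7.74, 7.78 and 7.83 at 15 °C and 8.18, 8.09 and 8.07 at 25 °C, a rise of 0.33 ± 0.12 (SE) at adjusted p = 0.0479. This last call was lost without any single one of the 6 arrays compared (adjusted p 0.0732 to 0.131), after median centring (0.0925) and with preparation number blocked (0.0634). In the same mutants ctl-2 was at 0.28 ± 0.16 (SE), which was not called (adjusted p = 0.23), although its warm arrays (8.80 to 8.96) lay above its cool ones (8.50 to 8.70). Wild-type adults at 25 °C stood highest of the 4 adult groups for both genes, and the neighbouring groups, mutants at 25 °C and the wild type at 15 °C, overlapped. ctl-3 had a difference of 0.32 ± 0.19 (SE) in the wild type and 0.18 ± 0.19 (SE) in the mutant, with adjusted p = 0.216 and 0.513.

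sod-5, a cytosolic dismutase known for its rise in the dauer larva, was called in the wild type alone. Its wild-type adult arrays read 3.65, 3.89 and 3.62 at 15 °C and 4.12, 4.27 and 4.18 at 25 °C, and its mutant arrays 3.61, 3.47 and 3.66 at 15 °C and 3.54, 3.70 and 3.26 at 25 °C. The warm wild-type arrays were above the other 9 adult arrays, which overlapped with each other. The rise in the wild type was 0.47 ± 0.14 (SE; limma adjusted p = 0.0131), and the mutant was at -0.080 ± 0.14 (SE; adjusted p = 0.714). In mutant adults sod-5 lay near the array median (mean percentile 49.8 at 15 °C and 47.7 at 25 °C), so its missing call there says little. Without wild-type 15 °C replicate 3 or 25 °C replicate 2 the wild-type adjusted p was 0.0565 or 0.0548. The difference between the 2 responses was -0.55 ± 0.20 (SE), with a 95% interval of -0.95 to -0.14 before adjustment and an adjusted p = 0.45 over all genes.

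The remaining dismutases were not called with temperature in adults. sod-1 was at -0.23 ± 0.13 (SE) in the wild type and -0.12 ± 0.13 (SE) in the mutant (limma adjusted p = 0.172 and 0.512). sod-2, the main mitochondrial dismutase, was at -0.25 ± 0.17 (SE) and -0.40 ± 0.17 (SE), with adjusted p = 0.297 and 0.0982. The mutant value of sod-2 passed the threshold without 15 °C replicate 2 (adjusted p = 0.0479) or 25 °C replicate 1 (0.0453). sod-3 read 3.03, 3.10 and 3.14 at 15 °C and 3.62, 3.36 and 3.38 at 25 °C in the wild type, groups that did not overlap, with a difference of 0.36 ± 0.16 (SE) and adjusted p = 0.101. In the mutant it read 3.32, 2.75 and 2.80 against 3.30, 2.76 and 2.95, a difference of 0.046 ± 0.16 (SE; adjusted p = 0.869) that turned to -0.013 when arrays were centred on their medians. In mutant adults as a whole 2 of the 8 genes rose, sod-4 and ctl-1, and 0 fell, beside 13.4% and 11.2% of all genes. Its groups were apart in 4 of the 8 genes, beside 45.4% of all genes.

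**Figure D2:**
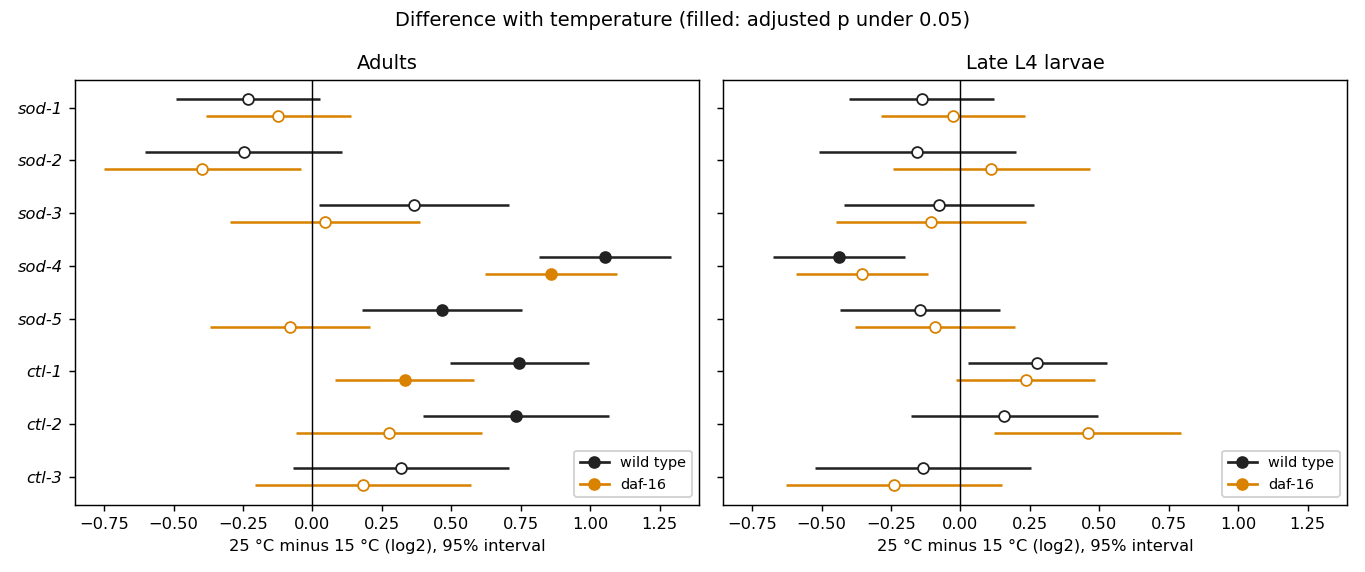
Difference between 25 °C and 15 °C (log2) with its 95% interval for each gene, in adults (left) and late L4 larvae (right), for wild type (black) and daf-16 (orange), 3 arrays against 3. Filled points have a limma adjusted p under 0.05. sod-4 lies right of 0 in adults (1.05 and 0.86) and left of it in larvae (-0.44 and -0.35).

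Marker genes of several tissues moved with temperature in the adults too. Their counts stand beside 15.1% of all genes rising and 15% falling in wild-type adults, and 13.4% and 11.2% in mutant adults. Of 12 neuronal genes 10 rose in wild-type adults and 8 in mutant adults, and 0 fell. Their mean level went from 6.21 to 6.37 over the cool wild-type arrays to 7.13 to 7.18 over the warm ones, and from 6.27 to 6.45 to 6.98 to 7.23 in mutants. Of 6 pharyngeal muscle genes 5 rose in the wild type and 6 in the mutant (4.93 to 5.21 against 5.75 to 6.13, and 4.89 to 5.16 against 6.08 to 6.46), and of 11 body wall muscle genes 9 rose in the wild type, while 3 rose and 1 fell in the mutant. Of 10 moulting genes 6 rose in each genotype, and the list went from 5.46 to 5.85 to 6.88 to 7.02 in the wild type. Of 11 intestinal genes 1 rose and 3 fell in the wild type, with mean levels of 8.48 to 8.64 and 8.39 to 8.76, and 3 rose in the mutant. Of 12 early embryo genes 3 rose in each genotype and 1 fell in the mutant. Among 6 yolk and adult cuticle genes 0 rose in either genotype, while 1 fell in the wild type and 2 in the mutant. No marker list had all of its genes below the array median in adults. The part of any of these tissues in the changes of sod-4, sod-5, ctl-1 and ctl-2 was not tested.

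In larvae sod-4 went the other way, and the catalases ctl-1 and ctl-2 lay above 0 without a call. By limma 1 of the 8 genes, sod-4, fell in wild-type larvae and 0 rose, where 2.03% of all genes fell and 2.25% rose. In mutant larvae 0 of the 8 were called, beside 4.6% of all genes. The groups were apart in 1 of the 8 genes in the wild type and in 3 in the mutant, beside 19.1% and 21.2% of all genes. At an unadjusted p under 0.05 there were 2 of the 8 in each genotype, beside 17% of all genes in the wild type and 16.8% in the mutant. sod-4 read 7.28, 7.17 and 7.05 at 15 °C and 6.70, 6.59 and 6.91 at 25 °C in the wild type. All warm arrays were lower, and the fall was -0.44 ± 0.11 (SE), or 1.35-fold, at adjusted p = 0.0303. Without wild-type 15 °C replicate 1 or 2 its adjusted p was 0.114 or 0.0752, and without 25 °C replicate 1 or 2 it was 0.0743 or 0.165. The call was also lost after cyclic loess (0.0541) and from the larval arrays alone (0.106). In mutant larvae sod-4 read 7.26, 7.11 and 6.96 against 6.68, 6.72 and 6.86, again without overlap, with a difference of -0.35 ± 0.11 (SE; adjusted p = 0.085). Averaged over the genotypes, a comparison added after the data had been seen, the fall was -0.40 ± 0.08 (SE) with adjusted p = 0.00205. It was the sole gene of the 8 called there, where 6.17% of all genes fell and 6.08% rose.

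For ctl-1 the larval differences were 0.28 ± 0.12 (SE) in the wild type and 0.24 ± 0.12 (SE) in the mutant (limma adjusted p = 0.232 and 0.336). For ctl-2 they were 0.16 ± 0.16 (SE) and 0.46 ± 0.16 (SE), at adjusted p = 0.698 and 0.118. Only in the mutant larvae were the warm and cool arrays of these genes apart, at 7.64 to 7.92 against 7.40 to 7.62 for ctl-1 and 8.18 to 8.61 against 7.71 to 8.12 for ctl-2. Averaged over the genotypes, ctl-1 was at 0.26 ± 0.09 (SE; adjusted p = 0.0529) and ctl-2 at 0.31 ± 0.11 (SE; adjusted p = 0.0867). Both passed after cyclic loess (0.0229 and 0.0461), and ctl-1 also with preparation number blocked (0.0217). The other 5 genes had differences between -0.24 and 0.11 in larvae and none was called. Marker genes moved in larvae too. Their counts stand beside 2.25% of all genes rising and 2.03% falling in the wild type, and 4.6% called in the mutant. In the average over genotypes 6.08% of all genes rose and 6.17% fell. Of the neuronal, body wall muscle and moulting lists 0 genes were called in either genotype, and of 6 pharyngeal muscle genes 2 fell in the mutant. Of 11 intestinal genes 1 rose in the wild type and 2 in the mutant. Of 6 yolk and adult cuticle genes 1 rose and 1 fell in wild-type larvae, and 4 fell in mutant larvae. In the average over genotypes, where sod-4 fell, 4 of 6 pharyngeal muscle genes fell, with a list median of -0.45. There 3 of 6 yolk and adult cuticle genes fell and 1 rose, and 2 of 11 intestinal genes rose and 1 fell. Of 12 neuronal genes 1 rose, and of 10 moulting genes 1 fell. The part of these tissues in the larval fall of sod-4 was not tested.

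The adult and larval responses were set against each other as a difference of differences, which uses only comparisons within a stage. Its size still assumes a common log2 scale in both stages, which was not tested. For sod-4 the adult response exceeded the larval one by 1.49 ± 0.16 (SE) in the wild type and by 1.21 ± 0.16 (SE) in the mutant, with limma adjusted p = 2.58e-06 and 3.55e-05. Both values kept their call with the block, median centring, cyclic loess, the filter on dim genes and each array left out. For sod-5 the stages differed by 0.61 ± 0.20 (SE) in the wild type (adjusted p = 0.04), a call lost in 8 of 12 runs without 1 array (adjusted p from 0.0122 to 0.115 over the 12), with median centring (0.0625) and after cyclic loess (0.0706). The 8 arrays were wild-type adult 15 °C replicates 1 and 3, adult 25 °C replicates 2 and 3, larval 15 °C replicates 1 and 3, and larval 25 °C replicates 1 and 3. ctl-1 and ctl-2 differed by 0.47 ± 0.17 (SE) and 0.58 ± 0.23 (SE), not called at adjusted p = 0.0733 and 0.103 but called after cyclic loess (0.0176 and 0.0319), and ctl-2 with preparation number blocked (0.0419). A temperature response higher in adults than larvae was called for 2 of the 8 genes in the wild type and 1 in the mutant. The shares of all genes were 8.66% and 6.82%. Calls in the other direction were 0 of the 8 in each, beside 5.1% and 3.21%. Among all calls with stage, 63% and 68% lay above 0, or 52.8% and 58% after median centring.

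The catalases and sod-5 were lower in warm daf-16 adults than in warm wild-type adults. By limma sod-5, ctl-1, ctl-2 and ctl-3 were lower in daf-16 than in wild-type adults at 25 °C and 0 of the 8 were higher, where 1.64% of all genes fell and 1.36% rose. After median centring, rises made up 54.8% of all calls in place of 45.3%. ctl-3 read 8.41, 8.42 and 8.35 in the wild type and 7.74, 7.50 and 7.54 in the mutant. All mutant arrays were lower, by -0.80 ± 0.19 (SE), or 1.74-fold, at adjusted p = 0.0178. ctl-2 was lower by -0.73 ± 0.16 (SE; adjusted p = 0.0117), ctl-1 by -0.64 ± 0.12 (SE; adjusted p = 0.00349) and sod-5 by -0.68 ± 0.14 (SE; adjusted p = 0.00627). For each of these 3 genes the groups were apart too, as for 6 of the 8 genes, beside 19.8% of all genes. These calls leaned on single arrays: 2 of the 8 genes were called without wild-type 25 °C replicate 2 (sod-5 and ctl-1) or without mutant 25 °C replicate 3 (ctl-1 and ctl-2). ctl-1 kept its call in all 6 runs without 1 array. sod-5 lost its call without mutant replicate 3 (adjusted p = 0.0597). ctl-2 lost its call without wild-type replicate 2 (0.0721) or 3 (0.0542) or mutant replicate 1 (0.0585), and ctl-3 without wild-type replicate 2 (0.0719) or mutant replicate 2 (0.0804) or 3 (0.0767).

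None of the other 4 genes was called between adult genotypes at 25 °C. sod-2 at 25 °C read 7.18, 7.30 and 7.37 in the wild type and 6.93, 6.43 and 6.63 in the mutant. The groups did not overlap, and the difference of -0.62 ± 0.17 (SE) had an adjusted p = 0.0508, just short of the threshold. It was 0.0302 after cyclic loess, 0.0414 from the adult arrays alone and 0.0434 without the dimmest 25% of genes, and 0.0348 without mutant replicate 1. sod-3 at 25 °C was at -0.45 ± 0.16 (SE; adjusted p = 0.169), with mutant arrays of 2.76 to 3.30 below wild-type arrays of 3.36 to 3.62. sod-1 (0.14 ± 0.13, SE) and sod-4 (0.010 ± 0.11, SE) were not called at 25 °C, with 95% intervals of -0.12 to 0.40 and -0.23 to 0.25.

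At 15 °C none of the 8 genes was called between adult genotypes by limma, beside 1.47% of all genes, and 2 had an unadjusted p under 0.05, as did 12.5% of all genes. These were ctl-3, at -0.66 ± 0.19 (SE; adjusted p = 0.0857), and sod-2, at -0.47 ± 0.17 (SE; adjusted p = 0.215). ctl-3 read 7.90, 8.27 and 8.06 in the wild type and 7.41, 7.24 and 7.58 in the mutant, groups that did not overlap, and it was called from the adult arrays alone (adjusted p = 0.0299). The groups were apart in 3 of the 8 genes, beside 20.7% of all genes. Whether the genotype effect differed between temperatures is the same test as whether the temperature effect differed between genotypes, and 0 of the 8 genes were called in it by limma, beside 0.267% of all genes. sod-5 (-0.55) and ctl-1 (-0.41 ± 0.17, SE; adjusted p = 0.606) had an unadjusted p under 0.05, as did 6.75% of all genes. ctl-2 was at -0.46 ± 0.23 (SE; adjusted p = 0.763) and ctl-3 at -0.13 ± 0.26 (SE; adjusted p = 0.994). A call at 25 °C and none at 15 °C is therefore not shown to be a difference between temperatures.

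Averaged over both temperatures in adults, a comparison added after the data had been seen, sod-2, sod-5, ctl-1, ctl-2 and ctl-3 fell in the mutant and 0 of the 8 rose, beside 2.87% and 3.24% of all genes. The differences were -0.73 ± 0.13 (SE) for ctl-3, -0.54 ± 0.12 (SE) for sod-2, -0.50 ± 0.11 (SE) for ctl-2, -0.43 ± 0.09 (SE) for ctl-1 and -0.41 ± 0.10 (SE) for sod-5. By limma their adjusted p-values lay between 0.00149 and 0.0129. sod-3 was at -0.29 ± 0.12 (SE; adjusted p = 0.157), and 0.0465 without mutant 15 °C replicate 1. The count of the 8 genes called was 5 or 6 in the 12 runs without 1 array. Each of the 5 genes kept its call in all of these runs. Tissue markers stand beside 1.36% of all genes higher and 1.64% lower in the mutant at 25 °C, and 1.47% called at 15 °C. At these shares 0 calls in a short list say little. At 25 °C, 0 of 12 neuronal and 0 of 6 pharyngeal muscle genes were called between the genotypes. Of 11 intestinal genes 1 was higher and 1 lower in the mutant. Of 11 body wall muscle genes 1 was lower in the mutant, the list's median difference was -0.29, and its mean levels were 8.17 to 8.38 in the wild type and 7.88 to 8.22 in the mutant. The mean levels of the intestinal list overlapped at 8.39 to 8.76 in the wild type and 8.64 to 8.69 in the mutant, and those of the neuronal list at 7.13 to 7.18 and 6.98 to 7.23. Early embryo genes at 15 °C were higher in the mutant in 5 of 12 cases, with list means of 4.96 to 5.41 and 5.58 to 5.73. In the average over temperatures 5 of 12 were higher too, with a median of 0.35, while 1 body wall muscle gene was higher and 1 intestinal gene lower. The part of these tissues in the results was not tested.

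**Figure D3:**
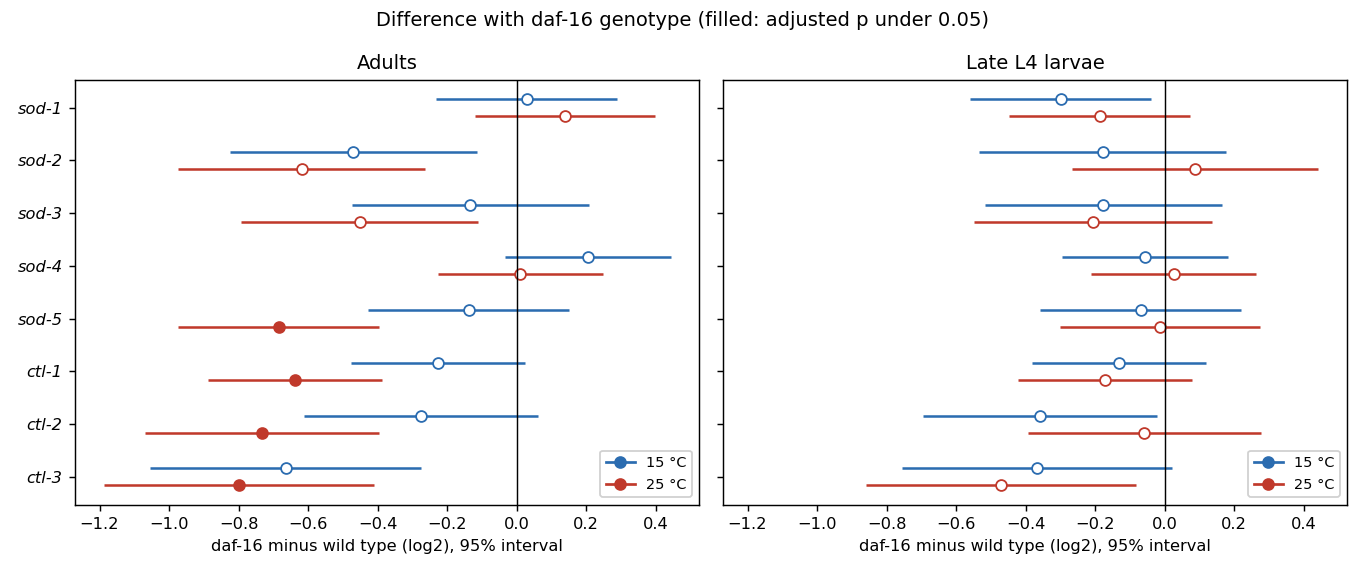
Difference between daf-16 and wild type (log2) with its 95% interval for each gene, in adults (left) and late L4 larvae (right), at 15 °C (blue) and 25 °C (red), 3 arrays against 3. Filled points have a limma adjusted p under 0.05. The 4 filled points are sod-5, ctl-1, ctl-2 and ctl-3 in adults at 25 °C, between -0.64 and -0.80.

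In larvae none of the 8 genes was called between the genotypes by limma at 15 °C or at 25 °C, where 0.0708% and 0.118% of all genes were called. The groups were apart in 2 of the 8 genes at 15 °C and in 0 at 25 °C, beside 13% and 9.66% of all genes. At an unadjusted p under 0.05 there were 2 of the 8 at 15 °C, sod-1 (-0.30 ± 0.13, SE) and ctl-2 (-0.36 ± 0.16, SE), and 1 at 25 °C, ctl-3 (-0.47 ± 0.19, SE). The shares of all genes were 7.86% and 4.99%. ctl-3 read 5.45, 5.07 and 5.48 in the wild type and 5.06, 4.67 and 5.17 in the mutant at 15 °C, and 4.76, 5.64 and 5.19 against 5.06, 4.57 and 4.56 at 25 °C, so the genotypes overlapped at both temperatures. Averaged over temperatures it was at -0.42 ± 0.13 (SE; adjusted p = 0.262), with 0 of the 8 genes and 0.389% of all genes called. sod-4 and sod-5 had 95% intervals of -0.18 to 0.15 and -0.24 to 0.16 in that average. The temperature response of larvae differed between the genotypes for 0 of the 8 genes and for 0% of all genes by limma, and 0 of the 8 had an unadjusted p under 0.05, beside 4.13% of all genes.

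Other enzymes of peroxide and thiol metabolism moved in mixed directions in adults. The list counts that follow stand beside 15.1% of all genes rising and 15% falling with temperature in wild-type adults, and 13.4% and 11.2% in mutant adults. Of 11 glutathione peroxidase and peroxiredoxin genes, which also remove peroxides, 2 rose and 2 fell in wild-type adults with temperature. These were gpx-5 (1.36 ± 0.19, SE) and gpx-4 (0.58), and prdx-6 (-0.74 ± 0.19, SE) and gpx-1 (-0.72). In mutant adults gpx-3 (0.78) and gpx-5 (0.53) rose and prdx-6 fell (-0.60). Of 16 thioredoxin and glutathione genes 1 rose and 7 fell in the wild type, and 1 and 6 in the mutant. The largest fall in the wild type was msra-1 (-1.74 ± 0.19, SE), a methionine sulfoxide reductase, followed by the glutaredoxins glrx-21 (-1.07) and glrx-5 (-0.73), the mitochondrial thioredoxin gene trx-2 (-0.65), glrx-3 (-0.58) and gss-1 (-0.55), the glutathione synthetase. trx-3, a thioredoxin of the intestine, rose (1.28 ± 0.21, SE). All named changes had a limma adjusted p of at most 0.0475.

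Of 9 genes of oxidant production and its regulators with a probe set, 3 rose in both adult genotypes and 0 fell. They were the dual oxidase bli-3 (0.53 and 0.69 in wild type and mutant), its tetraspanin partner tsp-15 (0.94 and 1.02) and the peroxidase mlt-7 (0.71 and 0.72), which act together in building the cuticle. Of 11 peroxisome biogenesis genes 1 rose and 2 fell in each adult genotype, with prx-19 (-0.56 and -0.44) and prx-10 (-0.44 and -0.33) lower in both. prx-6 (0.39) rose in the wild type and prx-5 (0.49), the import receptor that brings catalase into peroxisomes, in the mutant. Of 8 genes of insulin-like signalling akt-2 (0.81), a kinase that restrains DAF-16, rose in wild-type adults, and age-1 (-0.51) and akt-1 (-0.37) fell. In mutant adults the kinase sgk-1 (0.65) rose. The median temperature difference in wild-type adults was -0.20 for peroxide removal, -0.40 for thioredoxin and glutathione, 0.17 for oxidant production, -0.10 for peroxisome biogenesis and 0.021 for insulin-like signalling. Between adult genotypes at 25 °C, 0 of 11 peroxide removal and 0 of 11 peroxisome genes were called. Of all genes 1.36% were higher and 1.64% lower in the mutant there, so these zeros say little. msra-1 was higher in the mutant (0.75), and akt-2 fell (-1.13 ± 0.15, SE) beside daf-16.

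**Figure D4:**
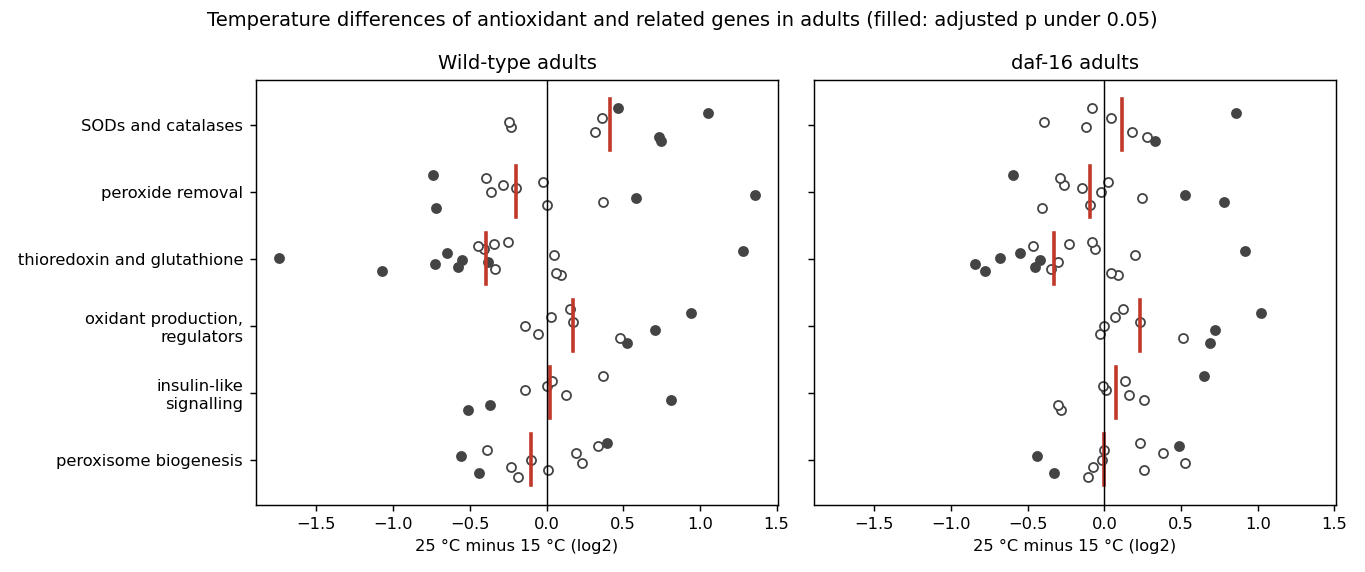
Difference between 25 °C and 15 °C (log2) of each gene in the superoxide dismutase and catalase family and 5 related lists, in wild-type (left) and daf-16 (right) adults. Each point is 1 gene, filled where the limma adjusted p is under 0.05, and the red bar is the list's median (0.42 for the 8 genes and -0.40 for thioredoxin and glutathione in the wild type).

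In larvae 2 of 11 peroxide removal genes fell in the wild type, where 2.03% of all genes fell and 2.25% rose. In the mutant 0 were called, beside 4.6% of all genes. Among 16 thioredoxin and glutathione genes 1 rose in each genotype, and among 11 peroxisome genes 0 were called in the wild type and 1 rose in the mutant. gpx-2 (-0.54) and gpx-6 (-0.84) fell with temperature in the wild type, and trx-3 rose in both genotypes (0.81 and 1.26). prx-5 rose in the mutant (0.54). Between larval genotypes daf-16 was the sole gene called in the 5 lists at either temperature, beside 0.0708% of all genes at 15 °C and 0.118% at 25 °C.

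The patterns most like each changed gene were sought among 2018 named genes that varied between groups, by Pearson's r over the 24 arrays after the mean of each stage was subtracted. These arrays share their groups, and the values describe likeness only. For sod-4 the nearest were ttr-59 (0.95), ttr-16 (0.94) and brp-1 (0.93). For ctl-1 they were hex-1 (0.91), svct-1 (0.89) and dbd-3 (0.89), and for ctl-2 nlt-1 (0.90), cest-17 (0.88) and poml-3 (0.88). ctl-1 and ctl-2 themselves correlated at 0.92, more than either did with ctl-3 (0.65 and 0.57). With ctl-3 they correlated at 0.82 and 0.80 in the adult arrays alone, and at 0.31 and 0.18 in the larval ones. A share of signal between these probe sets was not tested. For sod-5 the nearest were srx-112 (0.86), hen-1 (0.79) and odc-1 (0.79). For sod-2, called in the adult average, they were pdcd-2 (0.79), rpoa-12 (0.79) and rps-11 (0.78). For ctl-3 the nearest were akt-2 (0.85), daf-16 itself (0.78) and ent-6 (0.75).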

How the data were processed

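The log2 values are those the authors deposited, made with RMA, which by design corrects background, normalises quantiles and summarises probe sets, per the submitters' processing notes. Its version and settings are not given in the sources used here. Probe sets were named through the platform table, and identifiers through RefSeq (assembly WBcel235, used for names and neighbours only). Of 29317 probe sets, 25484 had 1 symbol, 700 several and 3133 none. After 3 blank probe sets and 47 second probe sets (the highest mean was kept) were left out, 25434 genes were fitted. No filter on dim genes was applied.

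Group means of all 24 arrays were fitted with limma 3.58.1 in R 4.3.3 (16 residual and 6.06 prior degrees of freedom), for 12 comparisons and 3 averages added after the data had been seen. The median SE was 0.158 for 2 groups and 0.223 for a difference of differences. The number of arrays limits the precision. The 8 genes, the related lists and the markers were chosen with earlier results of these data known. Probe sets of their own were not found for nsy-1, opt-2, tni-2 and vit-3. The text names all 8 genes, daf-16, up to 6 called genes of a list by size in each direction, and the 3 nearest patterns of each called gene. Alternatives were the preparation number as a block, median centring, cyclic loess within a stage, the arrays of 1 stage, a filter on the dimmest 25% of genes and leaving out each array. Whether same-numbered preparations belong together was judged by correlating their deviations from the group means. Every number correlated above 0.1 when wild-type adults were compared across temperature (r 0.26 to 0.341). The same held when larvae at 25 °C were compared across genotype (r 0.151 to 0.455). The labels do not state such pairs, and the main fit used no block, so its SEs and p-values are unpaired. Elsewhere at least 1 number failed. The block changed no call of the 8 genes where every number passed. Promoter motifs and sequences were not used here.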

Additional observations from a re-analysis of the deposited data

Results flagged for a closer look

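The response to temperature differed between adults and larvae for sod-4 in both genotypes and for sod-5 in the wild type, by a test of the difference itself. The adult minus larval response of sod-4 was 1.49 in the wild type and 1.21 in daf-16 mutants, with a rise in adults and lower values at 25 °C in larvae. For sod-5 it was 0.61 in the wild type, in a gene whose larval arrays all lay below the array median. This sod-5 call (limma adjusted p = 0.04) was lost in 8 of 12 runs without 1 array. It was also lost with median centring (0.0625) and after cyclic loess (0.0706), while sod-4 kept its calls in all of these runs. Groups of 3 arrays were too small for a search for single outlying arrays.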

How the results depend on the processing

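The number of the 8 genes called by limma moved by over 1.5 times, or to or from 0, in these settings. For temperature in mutant adults it was 1 in place of 2 with the replicate block and after median centring. For temperature in wild-type larvae it was 0 in place of 1 after cyclic loess and from the larval arrays alone. For genotype in adults at 15 °C it was 1 in place of 0 from the adult arrays alone. For adult against larval responses in the wild type it was 1 in place of 2 after median centring. For temperature in larvae averaged over genotypes it was 2 in place of 1 with the replicate block, 3 after cyclic loess and 2 without the dimmest 25% of genes. Leaving out 1 array gave 3 to 4 genes for temperature in wild-type adults, 1 to 2 in mutant adults, 0 to 1 in wild-type larvae, 2 to 4 for genotype in adults at 25 °C, 1 to 3 for adult against larval responses in the wild type, and 1 to 3 for temperature in larvae averaged over genotypes. No label says that same-numbered preparations belong together. Every number correlated above 0.1 for temperature in wild-type adults, where 4 of the 8 genes were called with and without the replicate block. The same held for genotype in larvae at 25 °C, where 0 were called. In the other comparisons the block lost ctl-1 for temperature in mutant adults. It gained ctl-2 between the stages of the wild type and ctl-1 in the larval average, and changed no other call of the 8 genes. Counts over all genes moved by over 1.5 times from arrays of 1 stage alone, from 1088 to 606 for temperature in wild-type larvae, from 1170 to 586 in mutant larvae, from 374 to 232 for genotype in adults at 15 °C, from 68 to 25 for temperature by genotype in adults and from 99 to 57 for genotype in the larval average. Leaving out 1 array took them as low as 561, 602, 156, 33 and 64 in the same order, and took genotype in adults at 25 °C from 762 to 386. It also took temperature by genotype up to 114 in adults and from 0 to 2 in larvae. The block moved genotype in larvae at 15 °C from 18 to 29. The fits from 1 stage rest on fewer arrays by construction, and the cause of the other changes was not tested.

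No called value changed sign. Among uncalled differences, cyclic loess turned sod-1 with temperature in mutant adults to 0.000560, sod-4 with genotype in adults at 25 °C to -0.025, sod-5 with genotype in larvae at 25 °C to 0.0015, and sod-4 with genotype in the larval average to 0.00806. It also turned sod-1 between stages to 0.064 in the wild type and 0.0063 in the mutant, and sod-5 between stages in the mutant to -0.071. Median centring turned sod-3 with temperature in mutant adults to -0.013, sod-5 with genotype in larvae at 25 °C to 0.0049 and sod-5 between stages in the mutant to -0.054. Leaving out 1 array turned the sign of these uncalled values, given by their ranges. With temperature in mutant adults they were sod-3 (-0.10 to 0.23) and sod-5 (-0.18 to 0.043). In wild-type larvae they were sod-3 (-0.20 to 0.0075), sod-5 (-0.29 to 0.011), ctl-2 (-0.011 to 0.29) and ctl-3 (-0.36 to 0.083). In mutant larvae they were sod-1 (-0.17 to 0.050) and sod-2 (-0.11 to 0.31), and in the larval average sod-2 (-0.13 to 0.077). With genotype in adults they were sod-1 at 15 °C (-0.044 to 0.12) and sod-4 at 25 °C (-0.042 to 0.083). In larvae at 15 °C they were sod-4 (-0.13 to 0.018) and sod-5 (-0.21 to 0.089), and at 25 °C sod-2 (-0.13 to 0.28), sod-4 (-0.047 to 0.11), sod-5 (-0.082 to 0.041) and ctl-2 (-0.19 to 0.11). In the larval average of genotype they were sod-2 (-0.15 to 0.053), sod-4 (-0.052 to 0.028) and sod-5 (-0.11 to 0.038). For temperature by genotype in larvae they were sod-1 (-0.028 to 0.19), sod-3 (-0.13 to 0.090), sod-5 (-0.10 to 0.20), ctl-1 (-0.15 to 0.053) and ctl-3 (-0.32 to 0.12). Between stages they were sod-2 in the wild type (-0.21 to 0.050) and sod-1 (-0.17 to 0.046) and sod-5 (-0.091 to 0.13) in the mutant. Signal near the array median limits what sod-3 and sod-5 can show.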
